A study of Mus musculus with 18 samples.

Results

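The genes described here are 35 genes of DNA replication and of entry into S phase, the part of the cell cycle in which the genome is copied, followed through the ovaries of mice that carry 1 or no intact allele of Pik3cd. They were taken as a fixed list of symbols: the origin licensing and helicase genes Cdc6, Cdt1, Mcm2, Mcm3, Mcm4, Mcm5, Mcm6, Mcm7, Mcm10, Gins1 and Gins2, the clamp and single-strand binding genes Pcna, Rfc3, Rfc4, Rfc5, Rpa1 and Rpa2, the polymerase and primase genes Pola1, Pola2, Prim1, Prim2, Pold1 and Pole, the Okazaki fragment genes Fen1 and Lig1, the nucleotide supply genes Rrm1, Rrm2, Tyms and Tk1, the G1/S control genes Ccne1, Ccne2 and E2f1, and the chromatin copying genes Uhrf1, Chaf1a and Chaf1b. A gene was read from probe sets annotated to its symbol alone, and the probe set with the highest mean signal over all arrays stood for it. This gave 34 of the 35 genes, among 18193 genes so measured, and Chaf1a was not analysed here. Of these, 33 passed the filter on low values and were tested, among 12713 genes in all. Tyms, the thymidylate synthase gene, was dim on all 18 arrays, with signals of 12.6 to 19.8, and was not tested.

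Ovaries came from females of 6 groups with 3 biological replicates each, 1 array per replicate. The mice were Pik3cd+/- or Pik3cd-/- on the C57B6J/S129 background, aged 21 days at the start, and Pik3cd encodes the catalytic p110delta subunit of phosphoinositide 3-kinase. In each genotype 1 group was untreated, 1 received a single dose of 10 IU PMSG (pregnant mare serum gonadotropin, which acts mainly like FSH) and was taken 44 hours later, and 1 received 0.03 ml of E2 (oestradiol) in 3 injections 24 hours apart and was taken 72 hours after the first. The labels give no concentration of E2 and do not say how many animals a replicate holds. The reference genotype was heterozygous, no wild-type group was used here, and neither treatment had a vehicle-injected group, so a treatment difference cannot be told apart from handling, injection and the extra hours of age.

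Before a cell can copy its DNA, Cdc6 and Cdt1 load the ring-shaped Mcm2 to Mcm7 helicase onto replication origins. In S phase the ring is activated with the GINS complex, primase and polymerase alpha lay down primers, and polymerases delta and epsilon extend them on the Pcna clamp. Much of this machinery is transcribed under E2F factors, which cyclin E and its kinase release from the retinoblastoma proteins at the G1/S boundary. In the ovary the granulosa cells around a growing oocyte divide while the follicle grows, gonadotropins and oestradiol drive that growth, and granulosa cells leave the cell cycle as they differentiate.

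The E2F motif is what the promoters of these genes are best known for, so the sites are shown for the members that fell after PMSG in Pik3cd+/- ovaries. Of the 35 genes, 29 had a promoter in the RefSeq table (build GRCm38.p6), given as windows of 300 bases from 250 before to 50 after a transcript's start. The letters TTTCCCGC or TTTGGCGC, searched on both strands, stood in 9 of the 29 (31.0%), against 3.41% of 10254 tested genes and 1.8% of all 27025 genes with a promoter. They stood in 7 of the 19 members with a promoter that fell after PMSG in Pik3cd+/- ovaries (36.8%) and in 2 of the other 10 (20.0%), Mcm3 and Cdc6. The 7 are printed 5′ to 3′ on the strand of the gene with the motif in capitals. GCGGGAAA and GCGCCAAA are the same letters read from the opposite strand.
Mcm6 (chr1:128359723-128359837, minus strand, upstream of the gene): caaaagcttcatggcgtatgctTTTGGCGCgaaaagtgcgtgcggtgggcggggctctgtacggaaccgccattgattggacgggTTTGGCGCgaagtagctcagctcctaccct
Mcm7 (chr5:138172031-138172058, minus strand): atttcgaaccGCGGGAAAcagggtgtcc
Rfc3 (chr5:151651191-151651218, minus strand): tttcgcgctcGCGGGAAAactctactgt
Pold1 (chr7:44548766-44548786, minus strand): gtatcttgtgGCGGGAAAagc
Mcm5 (chr8:75109338-75109389, plus strand, upstream of the gene): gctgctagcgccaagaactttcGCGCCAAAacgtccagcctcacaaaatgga
Cdt1 (chr8:122568037-122568064, plus strand): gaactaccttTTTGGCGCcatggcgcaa
Pola1 (chrX:93632276-93632303, minus strand): tcatcacaggGCGCCAAAtgcactcccg
The motifs of Mcm6, at 110 and at 47 bases before the start, and that of Mcm5 lay upstream of the gene's annotated span. Those of Mcm7, Rfc3, Pold1, Cdt1 and Pola1 lay within it. CCAAT, the letters bound by the factor NF-Y, stood in 16 of 29 members (55.2%) against 42.6% of tested genes. TTTGAA, part of the motif of late cell cycle genes, stood in 2 of 29 (6.9%) against 14.1%. A match is a description of the letters in this window, not evidence of a bound site.

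The arrays resembled each other in scale, with median signals of 48.4 to 50.9 and a mean correlation with the other arrays of the group of 0.9894 to 0.9968. A probe set of Pik3cd separated the genotypes, with signals of 61.4 to 73.1 in the Pik3cd+/- ovaries and 19.1 to 28.8 in the Pik3cd-/- ovaries. The brightest probe set of Pik3cd did not, at 2329 to 4833 against 2949 to 3945, and the labels used here do not say which part of the gene was deleted. The ovary's own markers were present: all 10 granulosa and all 14 oocyte markers passed the filter. All 9 macrophage and all 6 endothelial markers passed as well. Of the lymphocyte markers with a probe set 2 of 6 passed, and of the red cell precursor markers 1 of 4. Oviduct markers, of which 2 of 4 passed, stood apart on Pik3cd+/- PMSG replicate 1 and Pik3cd+/- untreated replicate 2, with list means of 9.80 and 9.51 (log2) against at most 7.19 on the other 16 arrays.

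Over the 33 tested members, the mean log2 signal was highest in untreated Pik3cd+/- ovaries, at 9.50, 9.47 and 9.45 in the 3 replicates. It was lowest in Pik3cd+/- ovaries after PMSG, at 9.05, 8.96 and 9.16, and lay between at 9.26, 9.38 and 9.28 after E2. In Pik3cd-/- ovaries the values were 9.21, 9.14 and 9.49 untreated, 9.16, 9.08 and 9.15 after PMSG, and 9.22, 9.51 and 9.13 after E2. Member by member, the untreated Pik3cd+/- group had the highest of the 6 group means for 25 of 33 genes. The lowest mean fell to Pik3cd+/- ovaries after PMSG for 18 genes and to Pik3cd-/- ovaries after PMSG for 11.

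Replicates differed far more in some groups than in others, and the members moved as a block when they did. The median SD of a member's log2 signal was 0.07 in untreated Pik3cd+/- and in PMSG-treated Pik3cd-/- ovaries, 0.11 and 0.10 in Pik3cd+/- ovaries after PMSG and E2, and 0.21 and 0.23 in untreated and E2-treated Pik3cd-/- ovaries. In untreated Pik3cd-/- ovaries replicate 3 was the highest of the 3 for all 33 members. In E2-treated Pik3cd-/- ovaries replicate 2 was the highest for all 33. Untreated replicate 3 had a granulosa marker mean of 11.13 (log2) beside 11.02 and 10.17 in replicates 1 and 2. Its macrophage marker mean was 7.49 beside 7.70 and 8.34. E2-treated replicate 2 had the lowest macrophage marker mean of the 18 arrays, 6.86, beside 8.09 and 8.75 in replicates 1 and 3. Its granulosa marker mean was 11.14 beside 10.60 and 11.17, so replicate 3 was close to it in these markers. The part of these markers in the members' spread was not tested.

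**Figure D1:**
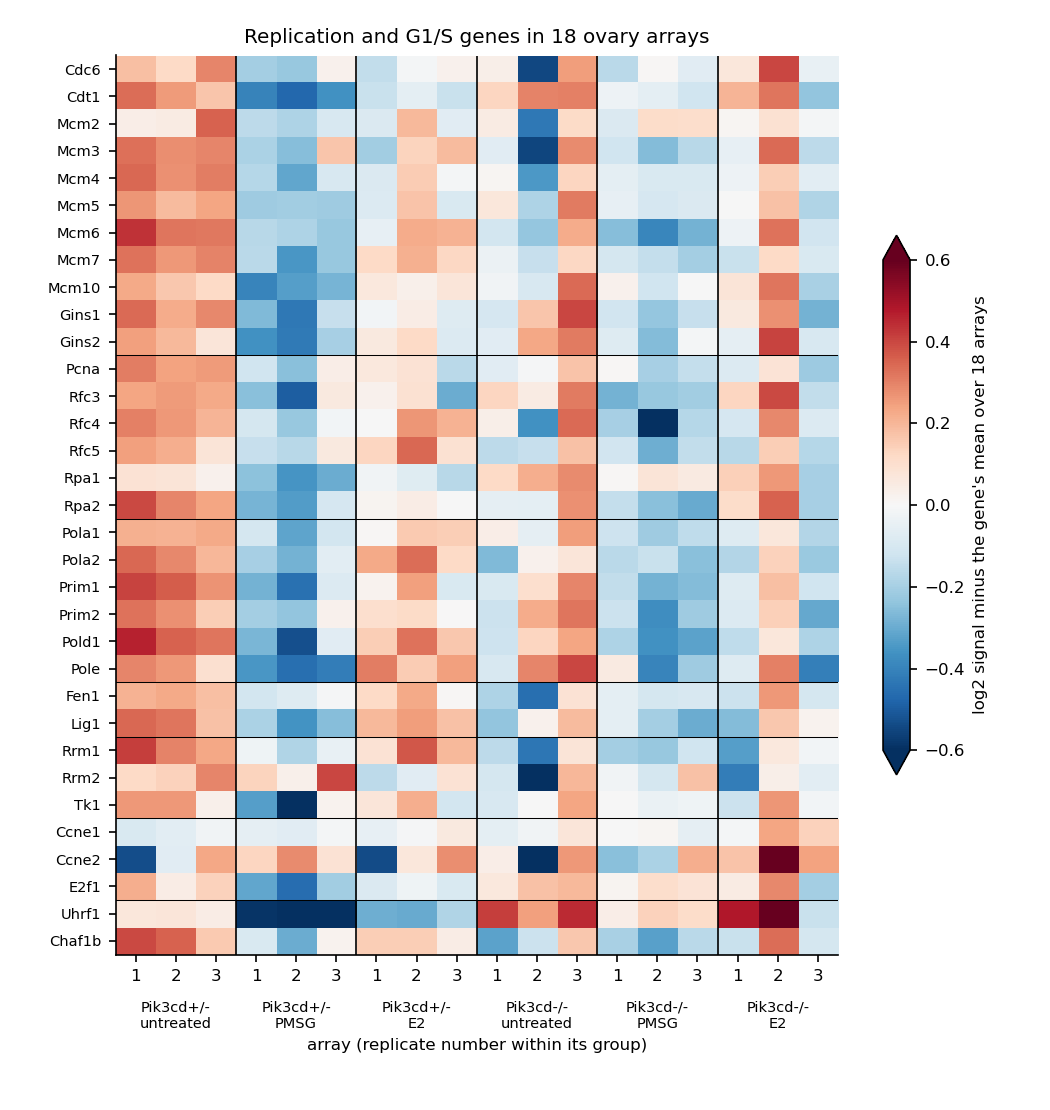
Log2 signal of the 33 tested members (rows, grouped by role) on the 18 arrays (columns, 3 replicates in each of 6 groups), as the difference from each gene's mean over all arrays, red above and blue below. Most rows are red in untreated Pik3cd+/- ovaries and blue after PMSG, and replicate 3 of untreated and replicate 2 of E2-treated Pik3cd-/- ovaries are the highest of their groups in every row.

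After PMSG most of the replication machinery was lower in Pik3cd+/- ovaries. Of 33 members 24 fell and none rose (adjusted p under 0.05 over all 12713 genes), with 4 of the 6 genes of the helicase ring and all 6 polymerase and primase genes among them. The falls were of similar and modest size, from -0.36 for Rpa1 to -0.67 for Uhrf1 and Pold1 on the log2 scale, and the median over the 33 was -0.46 against -0.05 over all genes tested. For comparison, 17.7% of all tested genes were called and 11.9% fell, where 72.7% of the members did. Every array after PMSG was below every untreated array for 30 members, against 24.9% of all genes. Changes are given ± SE on the log2(signal + 8.58) scale, which understates changes of dim genes. These are whole ovaries, so fewer dividing cells and less RNA per cell cannot be told apart.

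**Figure D2:**
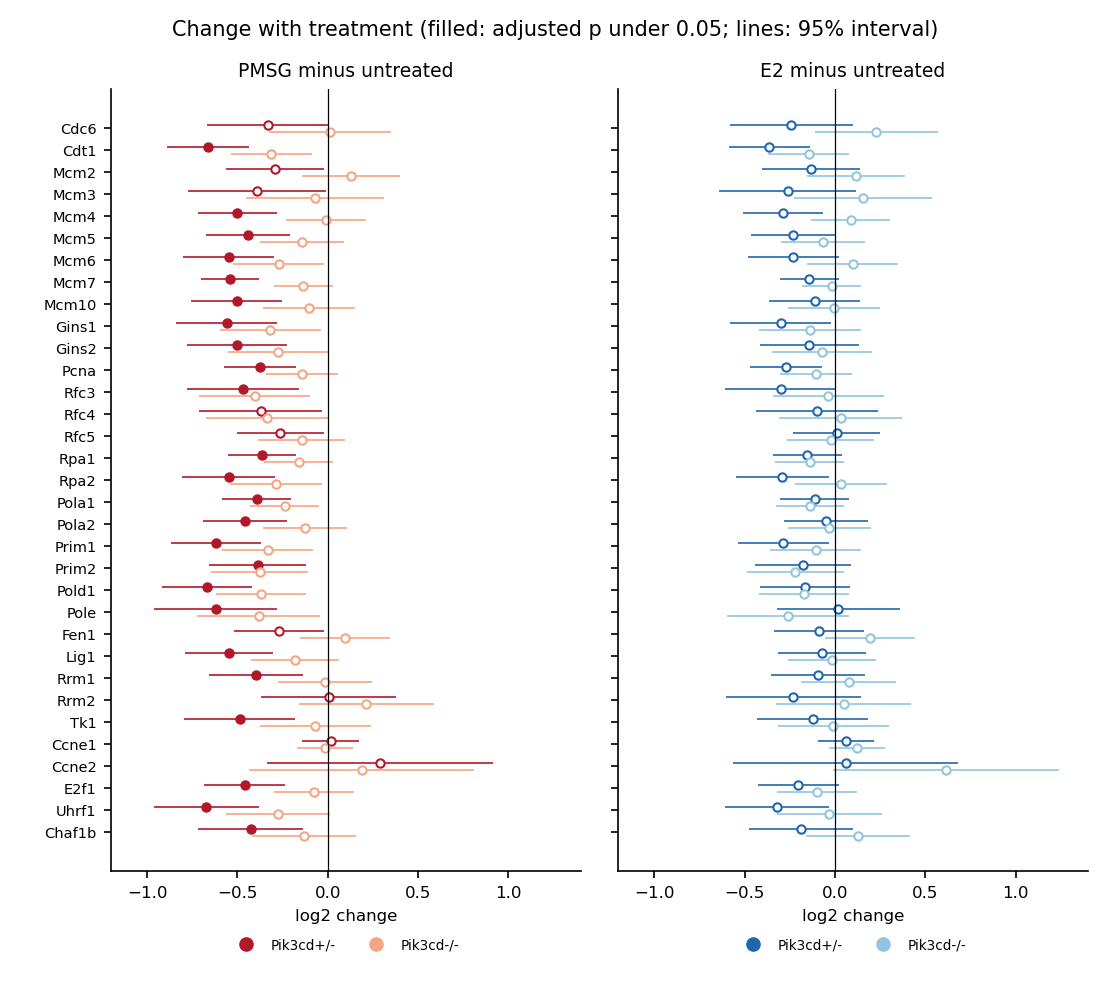
Log2 change of each tested member after PMSG (left) and after E2 (right) against untreated ovaries, dark for Pik3cd+/- and light for Pik3cd-/-, with 95% intervals and filled points at an adjusted p under 0.05. The 24 filled points are all falls after PMSG in Pik3cd+/- ovaries.

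Among the licensing and helicase genes, 8 of 11 fell. Mcm7, a subunit of the helicase ring, read 3430.5, 3272 and 3359.6 in the untreated arrays and 2442, 2144 and 2334 after PMSG. All 3 treated arrays lay below all 3 untreated ones, and the log2 change was -0.54 ± 0.076 (SE), adjusted p = 0.000626, the smallest adjusted p of any member. Its signal fell by 31.2%. Cdt1, which loads that ring, read 1898, 1796 and 1689.5 untreated and 1138, 1081 and 1168 treated. Again the groups did not overlap, and the change was -0.66 ± 0.11 (SE), adjusted p = 0.00139. Mcm4 went from 1540.3, 1467 and 1499.6 to 1076, 974 and 1133, a change of -0.50 ± 0.10 (SE), adjusted p = 0.00577. Mcm6 went from 2334, 2159 and 2150.1 to 1537, 1517 and 1476, with -0.55 ± 0.12 (SE), adjusted p = 0.00695. Both are further subunits of the ring, and neither had overlapping arrays. Gins1, of the GINS complex that activates the helicase, read 552, 509 and 532 untreated and 360.1, 321 and 395 treated, with -0.56 ± 0.13 (SE), adjusted p = 0.011. The treated replicate 2 was its lowest array, and without it the adjusted p was 0.0524. Mcm10, Gins2 and Mcm5 fell by 0.50, 0.50 and 0.44. Cdc6, Mcm3 and Mcm2 were not called, at -0.33, -0.39 and -0.29 with adjusted p-values of 0.16, 0.14 and 0.122.

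All 6 polymerase and primase genes fell. Pold1, the catalytic subunit of polymerase delta, read 421, 389 and 381 untreated and 249, 208 and 288 after PMSG. The highest treated array lay well below the lowest untreated one, and the change was -0.67 ± 0.12 (SE), adjusted p = 0.00254. Its signal fell by 37.1%. Prim1, the catalytic subunit of primase, went from 949.8, 923 and 862 to 585, 521 and 675, with -0.62 ± 0.12 (SE), adjusted p = 0.00392. Pola1, the catalytic subunit of polymerase alpha, went from 631, 628 and 638 to 504, 434 and 502. Its change was smaller, -0.39 ± 0.089 (SE), adjusted p = 0.00916. Pola2, the accessory subunit, went from 312, 299.8 and 281 to 211, 199 and 233, and Pole, the catalytic subunit of polymerase epsilon, from 279, 272 and 243 to 176, 163 and 168. Neither overlapped, at -0.46 ± 0.11 and -0.62 ± 0.16 (SE), adjusted p = 0.0114 and 0.0169. Prim2, the large primase subunit, had the largest adjusted p of the 24 calls, at -0.39 ± 0.13 (SE), adjusted p = 0.0452.

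The clamp, clamp loader and single-strand binding genes gave 4 falls among 6. Rpa2, a subunit of the complex that coats single-stranded DNA, read 850.5, 792 and 762 untreated and 529.5, 509 and 601 treated, with -0.55 ± 0.12 (SE), adjusted p = 0.00796. Its partner Rpa1 read 2335, 2319 and 2236 and 1853, 1714 and 1784, with -0.36 ± 0.090 (SE), adjusted p = 0.0138. Neither gene had overlapping arrays. Pcna, the sliding clamp, fell by 0.38 (adjusted p = 0.0146) and Rfc3, of the clamp loader, by 0.47 (0.0367). The loader subunits Rfc4 and Rfc5 were not called, at -0.37 and -0.26, adjusted p = 0.118 and 0.119. Lig1, which seals Okazaki fragments, went from 768, 755 and 681 to 527, 468 and 503, with -0.55 ± 0.11 (SE), adjusted p = 0.00591 and no overlap. Fen1, the nuclease that trims their flaps, was not called (-0.27, adjusted p = 0.119).

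E2f1 and Uhrf1 fell with the machinery, while neither cyclin E gene was called. E2f1, a transcription factor that drives many replication genes, read 208, 184 and 197 untreated and 141, 127 and 153 after PMSG. Those arrays did not overlap, and the change was -0.46 ± 0.10 (SE), adjusted p = 0.0091. Uhrf1, which recognises newly copied, hemimethylated DNA, read 1535, 1542 and 1509 and 971, 962 and 936. Its replicates differed by little within each group, and the change was -0.67 ± 0.14 (SE), adjusted p = 0.00526. Its signal fell by 37.2%. Chaf1b, of the histone deposition complex CAF-1, fell by 0.43 (adjusted p = 0.0416). Ccne1 read 152 ± 3.90 untreated and 154 ± 3.27 (SD, n = 3) treated, and Ccne2 at 289 ± 77.0 and 348 ± 26.3. Their log2 differences were 0.02 with a 95% interval of -0.14 to 0.17, and 0.29 with -0.33 to 0.91. Among nucleotide supply genes Rrm1, the large subunit of ribonucleotide reductase, fell by 0.40 (adjusted p = 0.0375), and Tk1, the S-phase thymidine kinase, by 0.49 (0.0301). Rrm2, the small reductase subunit, was not called: its arrays read 1355, 1375 and 1533 untreated and 1369.6, 1276 and 1649 treated, with a log2 difference of 0.00 and an interval of -0.37 to 0.38.

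**Figure D3:**
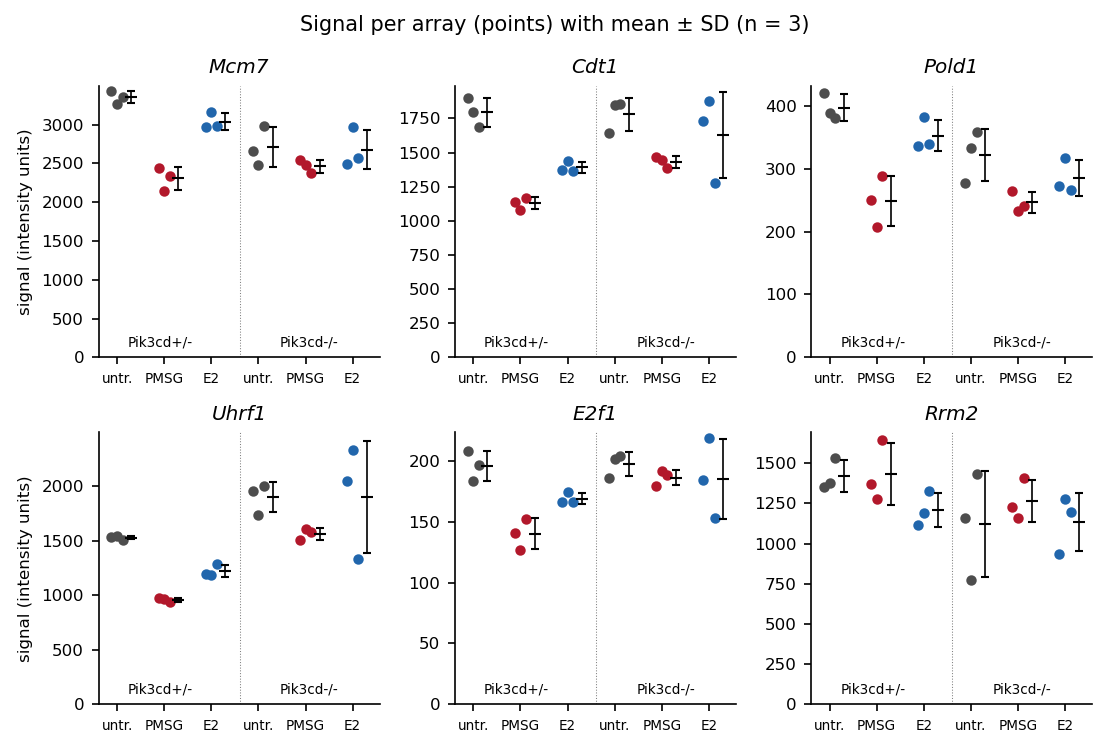
Signal (intensity units, linear axis from 0) of 6 members on each array as points, with mean ± SD (n = 3), for untreated, PMSG and E2 ovaries of both genotypes. Mcm7, Cdt1, Pold1, Uhrf1 and E2f1 are lower after PMSG in Pik3cd+/- ovaries with no overlap, while Rrm2 overlaps.

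The call count depended on single arrays. It was 12 of 33 without untreated replicate 1 and 13 without PMSG replicate 2, where 6.85% and 8.93% of all genes were called. All 24 falls kept their sign in every fit that left out 1 array. Without untreated replicate 2 or PMSG replicate 1, the arrays high in oviduct markers, 17 and 18 members were called. There 9.13% and 9.16% of all genes were called, and the median over the 33 was -0.45 each time. Among the 24 calls 11, including Mcm7, Cdt1, Pold1, Prim1, Uhrf1 and E2f1, held with any 1 array left out. Other probe sets of the same genes could be tested for 21 members, in a separate fit over 21545 probe sets with its own adjustment. Of these 28 probe sets 15 fell and none rose, and 22 had the sign of the probe set that stood for the gene. The second Uhrf1 probe set changed by -0.83, that of Cdt1 by -0.61 and that of E2f1 by -0.49. Other probe sets of Mcm2, Mcm3 and Rfc4 fell in that fit (-0.46, -0.56 and -0.52), while the brightest ones missed the threshold in the main fit. Mcm6 and Prim2 had a second probe set at 0.01 and 0.07, and Mcm4 at -0.02, none of them called, so the falls of these 3 genes rest on 1 probe set each.

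Other replication genes and mitosis genes fell alongside the members, where 11.9% of all tested genes fell. Of 43 other replication genes tested 28 fell and none rose, with a median of -0.41, among them Ticrr (-0.81), which helps to fire origins, Dnmt1 (-0.79), the maintenance DNA methyltransferase that works with Uhrf1, and Timeless (-0.62), of the fork protection complex. Of 19 mitosis genes 13 fell and none rose, with a median of -0.51. The smallest adjusted p-values among them were those of the spindle checkpoint genes Ttk (-0.69) and Bub1b (-0.64) and the kinetochore motor Cenpe (-0.66). Of 21 other G1/S regulators only 4 fell (median -0.14), among them Mybl2 (-0.91), E2f2 (-0.34) and Rbl1 (-0.45). Of 11 D cyclins, their kinases and inhibitors 1 rose and 1 fell, where 17.7% of all genes were called, and the median was 0.009. Cdkn1a, which encodes the inhibitor p21, rose by 0.63 (adjusted p = 0.00266). Ccnd2, the main D cyclin of granulosa cells, fell by 0.43 (0.0275). The calls of Ccnd2 and Rbl1 ended without any 1 of untreated replicates 1 to 3 and PMSG replicates 1 and 2. They also ended with the probe set of highest variance. That of E2f2 ended without any 1 of untreated replicates 1 and 2 and PMSG replicates 1 and 2. The call of Cdkn1a held in every setting run.

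Markers of cell types moved in the same comparison. Oocyte markers fell, 11 of 14 with a median of -0.92, and their list mean (log2) went from a range of 9.80 to 10.06 untreated to 9.05 to 9.19 after PMSG. Of 9 macrophage markers 4 rose (list means 7.13 to 7.37 untreated, 7.74 to 8.61 treated), and of 5 theca markers 3 rose, the steroidogenic genes Cyp11a1, Cyp17a1 and Star, while Gli1 and Ptch1 fell. Granulosa markers gave 1 rise and 1 fall among 10, with list means of 11.11 to 11.26 untreated and 11.16 to 11.86 treated, and none of 6 endothelial markers was called. The part of these shifts in the members' fall was not tested. Without the 3 arrays whose granulosa mean stood more than 0.4 (log2) from their group mates, 26 of 33 members fell. In that fit 22.5% of all genes were called. Only 1 of these arrays, PMSG replicate 3, belongs to this comparison, and it was the highest PMSG array for 23 of 33 members. The others enter through the shared estimate of spread, so this count does not measure the part of the markers.

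**Figure D4:**
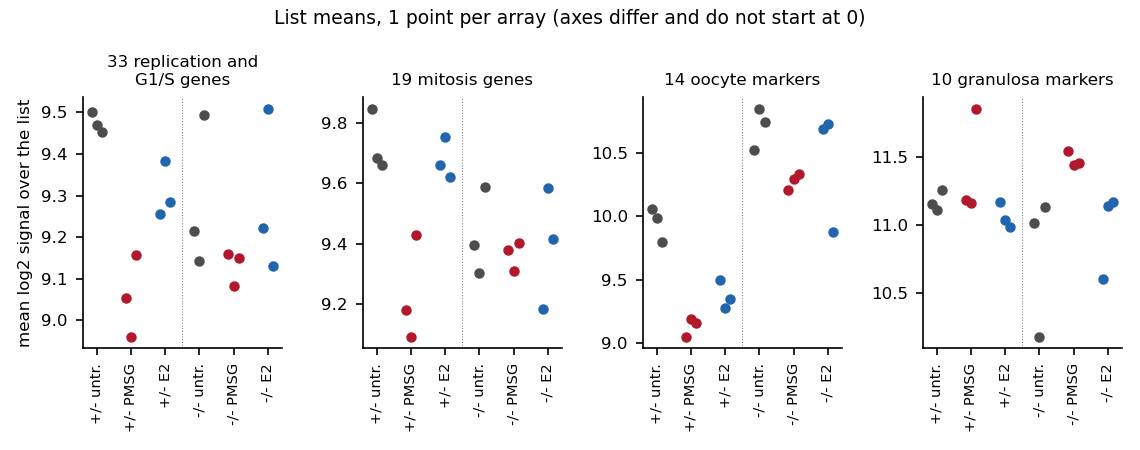
Mean log2 signal over a gene list, 1 point per array, for the 33 members, 19 mitosis genes, 14 oocyte markers and 10 granulosa markers in the 6 groups; axes differ and do not start at 0. Members, mitosis genes and oocyte markers are lower after PMSG in Pik3cd+/- ovaries, and oocyte markers are higher in Pik3cd-/- ovaries.

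In Pik3cd-/- ovaries no member passed the threshold after PMSG, where 2.39% of all genes did. Every PMSG array was below every untreated array for 10 of 33 members, against 14.4% of all genes. Of the 33 changes 28 were below 0 (53.4% of all genes), 10 had an unadjusted p under 0.05, and the median was -0.14 against -0.01 over all genes. This rested in part on single arrays: without untreated replicate 3, the highest of its group for every member, the median was -0.06 with 22 changes below 0, and without replicate 2 it was -0.22 with 33 below 0. Pold1 read 277, 332 and 358 untreated and 265, 233 and 241 after PMSG, with -0.37 ± 0.12 (SE), adjusted p = 0.106. Prim2 read 351, 450.3 and 482 and 351, 295 and 330.2, with -0.38 ± 0.13 (SE), adjusted p = 0.129. Cdt1 read 1642, 1849 and 1854 and 1469, 1444 and 1383, with -0.31 ± 0.11 (SE), adjusted p = 0.133. These 3 genes had the smallest adjusted p-values, and the arrays of Pold1 and Cdt1 did not overlap while those of Prim2 did. Mcm7 stood at 2711 ± 253 and 2462 ± 84.7 (SD, n = 3), a difference of -0.14 with a 95% interval of -0.30 to 0.03. Without untreated replicate 1, or without E2 replicate 3, which enters the shared estimate of spread, 2 members passed. In these fits 3.03% and 5.82% of all genes passed. Of the other lists, only the mitosis gene Ttk fell among other replication, G1/S, D cyclin and mitosis genes (-0.37).

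After E2 no member was called in either genotype. In Pik3cd+/- ovaries 29 of 33 changes were below 0 (49% of all genes) with a median of -0.17, 8 with an unadjusted p under 0.05, and 1.62% of all genes were called. Every E2 array was below every untreated array for 20 members, against 14.6% of all genes. Cdt1 read 1369.9, 1441 and 1368 after E2, with -0.36 ± 0.11 (SE), adjusted p = 0.0924. Pcna went from 5950.3, 5689.5 and 5755 to 5036, 5107 and 4299.9, with -0.27 ± 0.094 (SE), adjusted p = 0.152, and Mcm4 read 1142, 1347 and 1204, with -0.29 ± 0.10 (SE), adjusted p = 0.167. All 3 genes had E2 arrays below every untreated array. Fitted on these 6 arrays alone, or without Pik3cd-/- E2 replicate 3, 2 members were called. There 6.01% and 5.26% of all genes were called. In Pik3cd-/- ovaries the median was -0.02 (0.03 after quantile normalization, and -0.13 to 0.08 with 1 array left out). Of the 33 changes 20 were below 0, where 61.7% of all genes were. No member had an unadjusted p under 0.05, and 0.0551% of all genes were called. Ccne2, which had the smallest adjusted p, read 317, 141 and 371 untreated and 349, 487 and 366 after E2, with 0.61 ± 0.29 (SE), adjusted p = 0.346. Its untreated replicate 2 was far below the others. Prim2 read 363, 426 and 309 after E2 (-0.22 ± 0.13, adjusted p = 0.414) and Ccne1 went from 153, 156 and 167 to 158, 189 and 176 (0.12 ± 0.073, adjusted p = 0.426).

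Set against each other in Pik3cd+/- ovaries, PMSG left 6 members lower than E2 did and none higher, where 11.2% of all genes differed and 7.65% were lower. The median over the 33 was -0.26 (-0.06 over all genes), and 31 differences were below 0, where 61.1% of all genes were. Hours after injection and the number of injections differ between these groups as well as the agent. Mcm7 read 2969, 3168 and 2983 after E2, against 2144 to 2442 after PMSG, a difference of -0.40 ± 0.076 (SE), adjusted p = 0.00433. Pold1 read 337, 382 and 339.6, with -0.50 ± 0.12 (SE), adjusted p = 0.0133, and Lig1 691, 718 and 681, with -0.47 ± 0.11 (SE), adjusted p = 0.0152. In none of these 3 did the arrays overlap. Pole read 282, 252 and 270.3 (-0.64 ± 0.16, adjusted p = 0.0189), Pola2 287, 310.3 and 266 (-0.41 ± 0.11, adjusted p = 0.0253) and Mcm10 314, 307 and 317 against 226, 237 and 247 after PMSG (-0.39 ± 0.12, adjusted p = 0.046). The E2 levels of Pole and Pola2 were close to the untreated ones. For 23 members every PMSG array was below every E2 array, against 21.8% of all genes. The count was 1, 3 and 2 without PMSG replicate 2, E2 replicate 1 and E2 replicate 2, and 10 without Pik3cd-/- E2 replicate 3. The shares of all genes called in these fits were 5.24%, 6.52%, 4.82% and 14.4%. Mcm7 was called in every fit, while the call of Mcm10 ended in 13 of the 18 fits that left out 1 array and under 6 of the other planned settings. Mitosis genes differed too, with 9 of 19 lower after PMSG, as did 8 of 43 other replication genes.

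The same contrast in Pik3cd-/- ovaries called no member (4.11% of all genes), with a median of -0.14, 30 differences below 0 (46.3% of all genes) and 4 at an unadjusted p under 0.05. Mcm6 read 1444, 1317 and 1417 after PMSG and 1689.8, 2163 and 1595 after E2, with -0.37 ± 0.12 (SE), adjusted p = 0.0965. Rpa2 read 584, 541 and 521 and 697, 827 and 561 (-0.32 ± 0.12, adjusted p = 0.161), and Rfc3 379, 395 and 399.8 and 508, 613 and 417 (-0.37 ± 0.14, adjusted p = 0.179). The PMSG arrays lay below the E2 arrays for Mcm6 and Rfc3, and for Rpa2 they overlapped. Without E2 replicate 2, the highest of its group for every member, the median was -0.04 with 22 differences below 0. Without E2 replicate 3 the median was -0.23 and 5 members were lower after PMSG, where 10.7% of all genes were called. That array had an oocyte marker mean of 9.88 beside 10.69 and 10.73 in replicates 1 and 2. Its macrophage marker mean was 8.75 beside 8.09 and 6.86. The part of these markers was not tested.

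In untreated ovaries 1 member, Mcm7, differed between the genotypes, and it was lower in Pik3cd-/- ovaries (3.03% of the members, where 2.17% of all genes were called). The median of the 33 differences was -0.23 against -0.01 over all genes, 29 were below 0 (52.2% of all genes), and 12 were lower and 1 higher at an unadjusted p under 0.05. Without Pik3cd-/- untreated replicate 2, which stood apart in granulosa markers, the median was -0.13, and without replicate 3 it was -0.34. Mcm7 read 2663, 2486 and 2984 in Pik3cd-/- ovaries against 3272 to 3430.5 in Pik3cd+/- ovaries. The arrays did not overlap, and the difference was -0.31 ± 0.076 (SE), adjusted p = 0.0478. Rrm1 and Mcm4 came next without passing, at -0.48 ± 0.12 (SE) with adjusted p = 0.052 and -0.38 ± 0.10 with 0.0656. Every Pik3cd-/- array was below every Pik3cd+/- array for 8 members, against 14.1% of all genes. The call ended without any 1 of 12 arrays: Pik3cd+/- untreated replicates 1 to 3, PMSG replicate 1 and E2 replicates 1 to 3, and Pik3cd-/- untreated replicates 1 and 2 and PMSG replicates 1 to 3. It also ended without the 3 arrays that stood apart in granulosa markers. Without Pik3cd-/- untreated replicate 3 the count was 6, and it was 2, 4 and 4 without Pik3cd-/- E2 replicates 1, 2 and 3. Of all genes 5.32%, 3.47%, 3.39% and 5.35% were called in these fits. Granulosa list means were 10.17 to 11.13 in Pik3cd-/- and 11.11 to 11.26 in Pik3cd+/- ovaries, and their part was not tested.

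After PMSG, 3 members were higher in Pik3cd-/- than in Pik3cd+/- ovaries and none lower, where 4.13% of all genes differed and 3.08% were higher. Uhrf1 read 1504, 1609 and 1582 in Pik3cd-/- and 936 to 971 in Pik3cd+/- ovaries. The groups were far apart for so narrow a spread, and the difference was 0.71 ± 0.14 (SE), adjusted p = 0.0108. Rpa1 read 2209.8, 2318 and 2280.0 against 1714 to 1853, with 0.35 ± 0.090 (SE), adjusted p = 0.0418. E2f1 read 179.8, 192 and 189 against 127 to 153, with 0.39 ± 0.10 (SE), adjusted p = 0.0461. All 3 were without overlap. For the members as a whole the median was 0.03 (-0.0009 with arrays scaled to equal medians, and -0.03 to 0.10 with 1 array left out) with 14 differences below 0 (46.6% of all genes). Pold1 stood at 246 ± 16.6 against 248 ± 40.3 (SD, n = 3) and Pcna at 4464 ± 331 against 4477 ± 456. Uhrf1 kept its call in every fit but that without Pik3cd-/- PMSG replicate 2 (adjusted p = 0.0655), which called no member. The calls of Rpa1 and E2f1 ended in 11 and 14 of the 18 fits that left out 1 array, and Uhrf1 was the 1 member called without any 1 of Pik3cd+/- untreated replicates 1 to 3, PMSG replicates 1 and 2 and E2 replicates 1 and 2, or Pik3cd-/- PMSG replicates 1 and 3. The same-numbered arrays of these 2 groups, Pik3cd-/- and Pik3cd+/- after PMSG, deviated together (correlations of 0.258, 0.251 and 0.295), and with the replicate number as a block the calls of Rpa1 and E2f1 ended, which left 1 call, that of Uhrf1.

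After E2, Uhrf1 was again higher in Pik3cd-/- ovaries, and it was the 1 member called, where 16.8% of all genes were. It read 2046, 2336 and 1335 against 1193, 1186 and 1289 in Pik3cd+/- ovaries, a difference of 0.60 ± 0.14 (SE), adjusted p = 0.0118. Replicate 3 lay just above the highest Pik3cd+/- array and the other replicates far above it. The call ended without replicate 1 of the Pik3cd-/- group, one of the arrays that stood apart in granulosa markers, in a fit on these 6 arrays alone, and with the probe set of highest variance, where the difference was 0.34. The count was 2 without Pik3cd+/- E2 replicate 3 or Pik3cd-/- untreated replicate 1, and 3 without Pik3cd-/- E2 replicate 2 or 3. The median over the 33 was -0.02 (0.05 after quantile normalization, and -0.14 to 0.03 with 1 array left out). Pola2 came next, lower at -0.31 ± 0.11 (SE) with adjusted p = 0.0587. In untreated ovaries Uhrf1 read 1954, 1740.2 and 2002 in Pik3cd-/- against 1509 to 1542 in Pik3cd+/- ovaries, without overlap but short of the threshold (0.31 ± 0.14, adjusted p = 0.216).

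Dnmt1 shared this pattern with Uhrf1, higher in Pik3cd-/- ovaries by 1.00 after PMSG (adjusted p = 0.00171) and by 0.56 after E2 (0.0145). Oocytes are known to be rich in both transcripts, and their markers ran the same way: 13 of 14 were higher in Pik3cd-/- ovaries after PMSG, 14 of 14 after E2 and 7 of 14 untreated. Their list means after PMSG were 10.21 to 10.34 in Pik3cd-/- and 9.05 to 9.19 in Pik3cd+/- ovaries. The part of oocyte RNA in the Uhrf1 and Dnmt1 differences was not tested. Among mitosis genes 4 of 19 were higher in Pik3cd-/- ovaries after PMSG and 5 of 19 lower after E2.

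**Figure D5:**
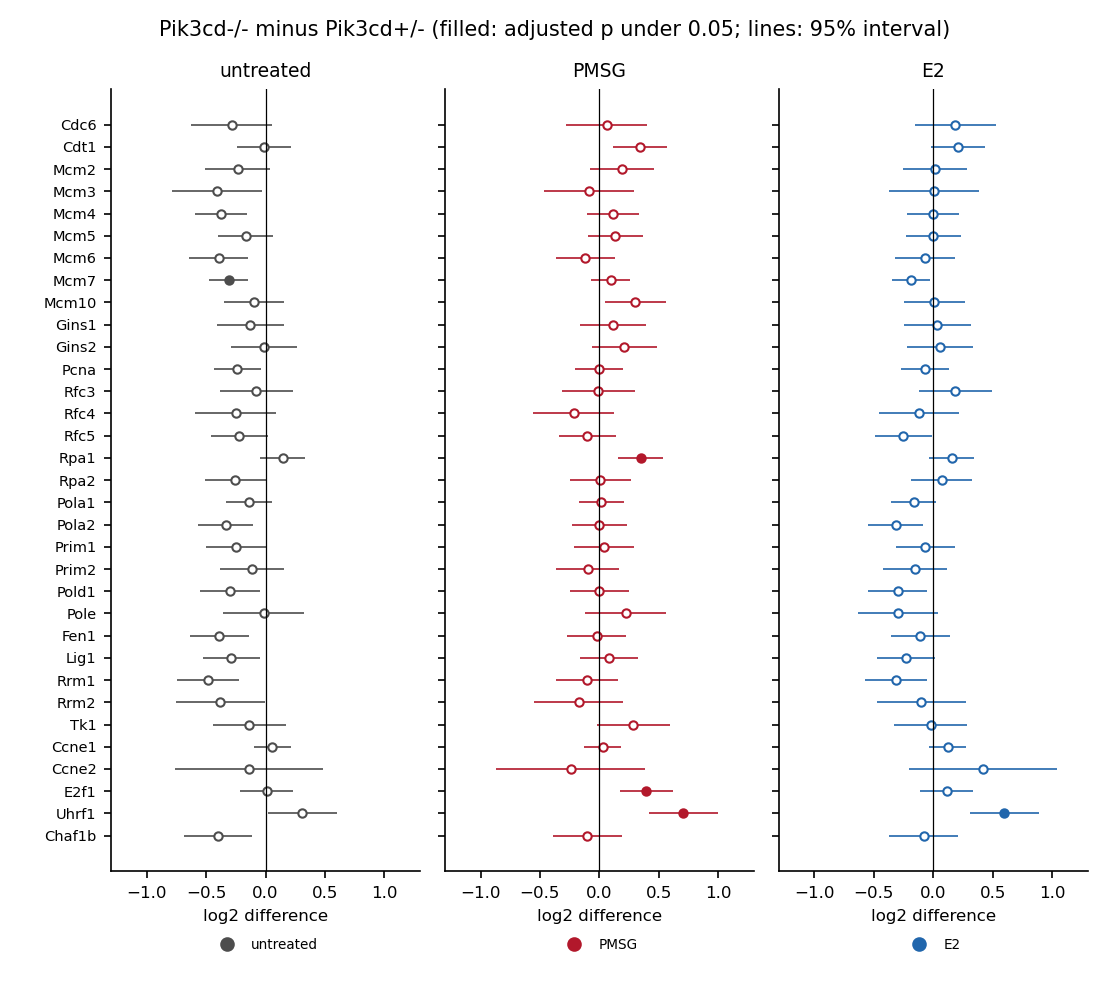
Log2 difference of each tested member between Pik3cd-/- and Pik3cd+/- ovaries, untreated, after PMSG and after E2, with 95% intervals and filled points at an adjusted p under 0.05. Most points lie left of 0 in untreated ovaries, where Mcm7 is filled. On the right, Uhrf1, Rpa1 and E2f1 are filled after PMSG, and Uhrf1 after E2.

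Whether the response itself differed between genotypes was tested as an interaction, and no member passed, nor did any other gene (0% called in both interactions by limma, with 1194 and 924 of 12713 genes at an unadjusted p under 0.05 for PMSG and E2). For PMSG the change in Pik3cd-/- ovaries minus that in Pik3cd+/- ovaries was above 0 for 31 of 33 members and below 0 for 42.3% of all genes. The median was 0.30 against 0.04 over all genes, and 10 members had an unadjusted p under 0.05. Most of the other lists leaned this way too, with medians of 0.44 for mitosis genes, 0.22 for other replication genes and 0.25 for other G1/S regulators. Medians were 0.49 for granulosa and for oocyte markers and 0.43 for theca markers. Those below 0 were macrophage (-0.67), oviduct (-0.41) and lymphocyte markers (-0.16) and D cyclins and CDK inhibitors (-0.02). The interaction was 0.41 ± 0.11 (SE), adjusted p = 0.351 for Mcm7, 0.49 ± 0.15 (SE), adjusted p = 0.359 for Mcm4 and 0.38 ± 0.15 (SE), adjusted p = 0.442 for E2f1. Their 95% intervals were 0.18 to 0.63, 0.18 to 0.80 and 0.07 to 0.70. The lower start of the untreated Pik3cd-/- ovaries enters this value: Mcm4 stood at 1166 ± 192 untreated and 1146 ± 15.9 after PMSG (SD, n = 3) in Pik3cd-/- ovaries, against 1502 ± 36.6 and 1061 ± 80.3 in Pik3cd+/- ovaries. E2f1 differed from this, with close untreated levels of 198 ± 9.85 and 196 ± 12.3 and a higher level after PMSG in Pik3cd-/- ovaries. For E2 the median interaction was 0.17 against -0.05 over all genes. It was above 0 for 28 of 33 members and below 0 for 60.4% of all genes, and 1 member had an unadjusted p under 0.05. The median was 0.08 without Pik3cd-/- E2 replicate 2, and 0.09 and 0.28 without Pik3cd-/- untreated replicates 2 and 3. Without Pik3cd-/- E2 replicate 3, 1 member passed. The smallest adjusted p-values were those of Mcm4 (0.38 ± 0.15, adjusted p = 0.66), Cdc6 (0.47 ± 0.23, adjusted p = 0.687) and Mcm6 (0.33 ± 0.17, adjusted p = 0.687). Cdc6 read 208, 198 and 225 untreated and 164, 181 and 186 after E2 in Pik3cd+/- ovaries, and 187, 122 and 218 and 192, 243 and 176 in Pik3cd-/- ovaries, where untreated replicate 2 was the lowest of all. With 3 arrays a group the intervals of an interaction are wide, and a p-value short of the threshold does not show that the genotypes responded alike.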

How the data were processed

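Total RNA of whole ovaries was extracted with Trizol and hybridised as biotin-labelled cRNA to Affymetrix Mouse Genome 430 2.0 arrays, per the labels' protocols. The deposited values are linear signal intensity, 1 per probe set and array, and the submitters' processing notes name MAS5 with no version. Scaling beyond that is not given in the sources used here, and no further normalization was applied. Probe sets were named from the platform annotation: of 45101, 34945 had 1 gene symbol and were used, 932 had several and 9160 none.

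Signals were tested as log2(signal + 8.58), the 10th percentile of all values. A gene was tested if at least 1 group mean was above the median (log2 5.87). In R 4.3.3, limma 3.58.1 estimated the means of the 6 groups and their contrasts by lmFit and eBayes, with a variance trend on mean signal (residual degrees of freedom 12, prior 3.66). Tests were two-sided, with p-values adjusted by Benjamini-Hochberg over 12713 genes in each of 11 comparisons, and an adjusted p under 0.05 counted as a call. Comparisons of 1 treatment or genotype share arrays and are not independent. The number of arrays limits the precision.

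The members, the comparison lists, the tests and the rule for naming genes were chosen with earlier results of these data known. Per-array values are given for at most 12 called members per comparison (smallest adjusted p first) or, with none called, for the 3 with the smallest adjusted p. Pola2, Pole and Rpa1, named in this way in other comparisons, also have theirs given after PMSG in Pik3cd+/- ovaries. The values of Rrm2, which was called in no comparison, were added outside this rule. Of other lists the 3 called genes with the smallest adjusted p after PMSG in Pik3cd+/- ovaries are named. Other called genes of these lists that the text names were picked with their values in view. The settings varied were the pseudocount (1 or 64), the filter, the normalization, the eBayes trend, the sample set, the probe set, the replicate number as a block, and each array left out. The fit was tested on simulated data.

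The replicate numbers were checked as a pairing: 1 of 15 pairs of groups, the 2 genotypes after PMSG, had all 3 correlations of same-numbered arrays above 0.1, and the labels do not say that numbers pair the arrays.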

Additional observations from a re-analysis of the deposited data

How the results depend on the processing

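The 24 falls after PMSG in Pik3cd+/- ovaries became 20 to 26 under the planned settings other than leaving out arrays, and 12 to 25 with 1 array left out. Of the 24, 11 held with any 1 array left out and 8 under every setting run. With the probe set of highest variance the calls of Mcm4, Prim1, Mcm6 and Prim2 ended. There Mcm6 and Prim2 turned to 0.0081 and 0.0742 on the log2 scale, because another probe set stood for them. With 1 array left out, the other member counts ran from 0 to 2 for PMSG in Pik3cd-/- ovaries, 0 to 2 and 0 to 0 for E2 in Pik3cd+/- and Pik3cd-/- ovaries, 1 to 10 and 0 to 5 for PMSG against E2, 0 to 6, 0 to 4 and 0 to 3 for the genotype difference untreated, after PMSG and after E2, and 0 to 0 and 0 to 1 for the PMSG and E2 interactions. For E2 in Pik3cd+/- ovaries 2 members passed in a fit on the 2 groups alone. The single call between untreated genotypes became 0 with no filter, equal medians, eBayes without trend, the 2 groups alone, the replicate block, the highest-variance probe sets or without the arrays apart, and 2 with the 70th percentile filter or quantile normalization. The 3 calls between genotypes after PMSG became 1 with no filter, equal medians, the replicate block, the highest-variance probe sets or without the arrays apart. The call after E2 became 0 with the 2 groups alone, the highest-variance probe sets or without the arrays apart. Over all settings planned, the genes called among all tested ranged widely around the main counts: 872 to 2742 (2255) and 86 to 741 (304) for PMSG in Pik3cd+/- and Pik3cd-/- ovaries, 33 to 764 (206) and 0 to 24 (7) for E2, 613 to 1830 (1423) and 216 to 1363 (522) for PMSG against E2, 1 to 681 (276), 82 to 989 (525) and 97 to 2970 (2141) for the genotype difference untreated, after PMSG and after E2, and 0 to 4 and 0 to 71 (0 in both) for the interactions. Leaving out the 3 arrays apart was chosen after seeing the data. The cause of these changes was not tested. Same-numbered arrays correlated at -0.344 to 0.338 over the 15 group pairs. With the replicate block, PMSG in Pik3cd+/- ovaries called 21 members and PMSG against E2 called 5.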
